A study of Mus musculus with 32 samples.

Results

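The genes described here are 10 targets of the oxidative stress factor NRF2, several of them genes of glutathione metabolism: Slc7a11, Gclc, Gclm, Gsr, Txnrd1, Srxn1, Prdx1, Hmox1, Nqo1 and Osgin1. They were taken as a list of names, and each was read through every probe set that the platform's probe table assigns to that symbol alone. Of the 10 genes, 9 had such a probe set, with 18 probe sets among the 34945 single-gene probe sets and 9 genes among the 18193 genes of the array. Prdx1, a peroxiredoxin that removes hydrogen peroxide, had 5 probe sets, all shared with the gene Gm21399, so no value is given for it.

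NRF2, encoded by Nfe2l2, is a transcription factor that the adaptor protein KEAP1 holds in the cytoplasm and hands over for degradation. Oxidants and electrophiles modify KEAP1, NRF2 then reaches the nucleus, and it binds antioxidant response elements near genes of glutathione synthesis, of the thioredoxin system and of quinone and heme breakdown. Slc7a11, the cystine importer, and several genes of amino acid supply are also known targets of ATF4, the factor of the integrated stress response. In brain the pathway is known best from astrocytes, which supply neurons with precursors of glutathione.

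Expression was measured with 32 arrays of striatum from male mice on a mixed CBA and C57Bl/6 background, aged 12 weeks. There were 8 R6/2 HSP990, 7 R6/2 vehicle, 10 WT HSP990 and 7 WT vehicle arrays. R6/2 mice carry a transgene with the first exon of the human huntingtin gene under the human gene's promoter, which is active in many cell types, and they are used as a model of Huntington's disease. WT mice lack the transgene. HSP990 is an inhibitor of the chaperone HSP90, given by oral gavage at 12 mg/kg for 4 h per the design text, and the other mice received the vehicle. The values are the log2 expression values that the authors deposited, already on one scale between arrays, and the precision of a mean is set by how many arrays it rests on. Each array was treated as a separate mouse. The labels number the replicates without naming animals, and the p-values reflect only the spread among these arrays, which may be partly technical. Comparisons that use the same group share its arrays and are not independent of each other.

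Array medians lay between 5.73 and 5.78 log2 units. The striatal label was checked against 8 measured markers of the spiny projection neurons that make up most of the striatum. Their mean log2 level ran over arrays from 9.55 to 10.53 in R6/2 HSP990, 9.24 to 10.78 in R6/2 vehicle, 11.39 to 11.86 in WT HSP990 and 11.40 to 11.82 in WT vehicle. RNA integrity differed among arrays. The 3' bias of an array, the mean 3' minus 5' difference of the Gapdh and Actb control probe sets, had a median of 1.46 in R6/2 HSP990 (0.87 to 4.56), 1.07 in R6/2 vehicle (0.78 to 2.11), 1.04 in WT HSP990 (0.64 to 1.61) and 1.43 in WT vehicle (0.82 to 2.45). R6/2 HSP990 replicate 5 and WT vehicle replicate 5 had Gapdh differences of 5.01 and 2.23, above the limit of 2 set for strong 3' bias. The fit was repeated without these 2 arrays, and with 3' bias as a covariate. In bulk tissue, fewer cells of a type and less RNA per cell cannot be told apart.

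A pair of upstream windows is shown first, of genes picked for their results. Slc7a11 rose with HSP990 in WT mice, and Srxn1 was lower in R6/2 than in WT mice on HSP990. The windows hold different elements, and whether these bear on either result was not tested. Each is the first 250 bases, up to the start of the gene, of a RefSeq promoter window of 300 bases (assembly GRCm38.p6). It is written 5′ to 3′ on the strand of the gene, with motif matches in capitals. Motifs were searched in these first 250 bases of each window, and not in the 50 bases after the start. The Slc7a11 window is chr3:50443614-50443863, minus strand, and its start lies inside the full span of the gene. The capitals mark TGATGCAA, an element bound by C/EBP and ATF factors, and its reverse complement.
Slc7a11: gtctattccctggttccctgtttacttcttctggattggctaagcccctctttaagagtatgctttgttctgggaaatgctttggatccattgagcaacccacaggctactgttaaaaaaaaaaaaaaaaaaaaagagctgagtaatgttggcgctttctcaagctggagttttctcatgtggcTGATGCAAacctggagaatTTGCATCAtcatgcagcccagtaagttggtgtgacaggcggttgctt
The Srxn1 window is chr2:152105274-152105523, plus strand, and the capitals mark TGAGTCA, the reverse complement of the AP-1 element TGACTCA.
Srxn1: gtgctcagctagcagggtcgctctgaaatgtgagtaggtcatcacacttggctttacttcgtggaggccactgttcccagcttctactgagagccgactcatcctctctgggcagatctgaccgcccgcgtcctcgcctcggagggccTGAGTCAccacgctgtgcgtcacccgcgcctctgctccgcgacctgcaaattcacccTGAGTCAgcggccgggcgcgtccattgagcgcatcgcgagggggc

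Slc7a11 held TGATGCAA at 66 bases and its reverse complement at 47 bases before the start. On both strands, 0.791% of 32851 RefSeq windows held that element, and 2 windows (0.00609%) held it 2 or more times, of which Slc7a11 was one. Srxn1 held the AP-1 element at 102 and at 45 bases before the start. That element was in 4.46% of windows, and 0.167% held it 2 or more times. The antioxidant response element core, TGACNNNGC, which can overlap the AP-1 element, was in 10.2% of windows. It stood at 134 bases before the start of Gclm, at 92 bases for Txnrd1 and at 133 bases for Prdx1. The Srxn1 copy of the AP-1 element at 45 bases reads on as TGAGTCAGC. That has G where the core has C, so it was not counted as a core match. The Prdx1 window also held the AP-1 element, at 237 bases and, overlapping the core, at 131 bases, and the Osgin1 window held it at 97 bases. Like that of Slc7a11, the Txnrd1 and Osgin1 windows have a start inside the full span of the gene. Neither heat shock element pair searched, GAANNTTC (6.69% of windows) or TTCNNGAA (7.17%), matched in the 7 members with a window, and no searched motif matched in Nqo1. A match describes letters and not binding, and no match says only that these letters are not in the 250 bases searched.

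**Figure D1:**
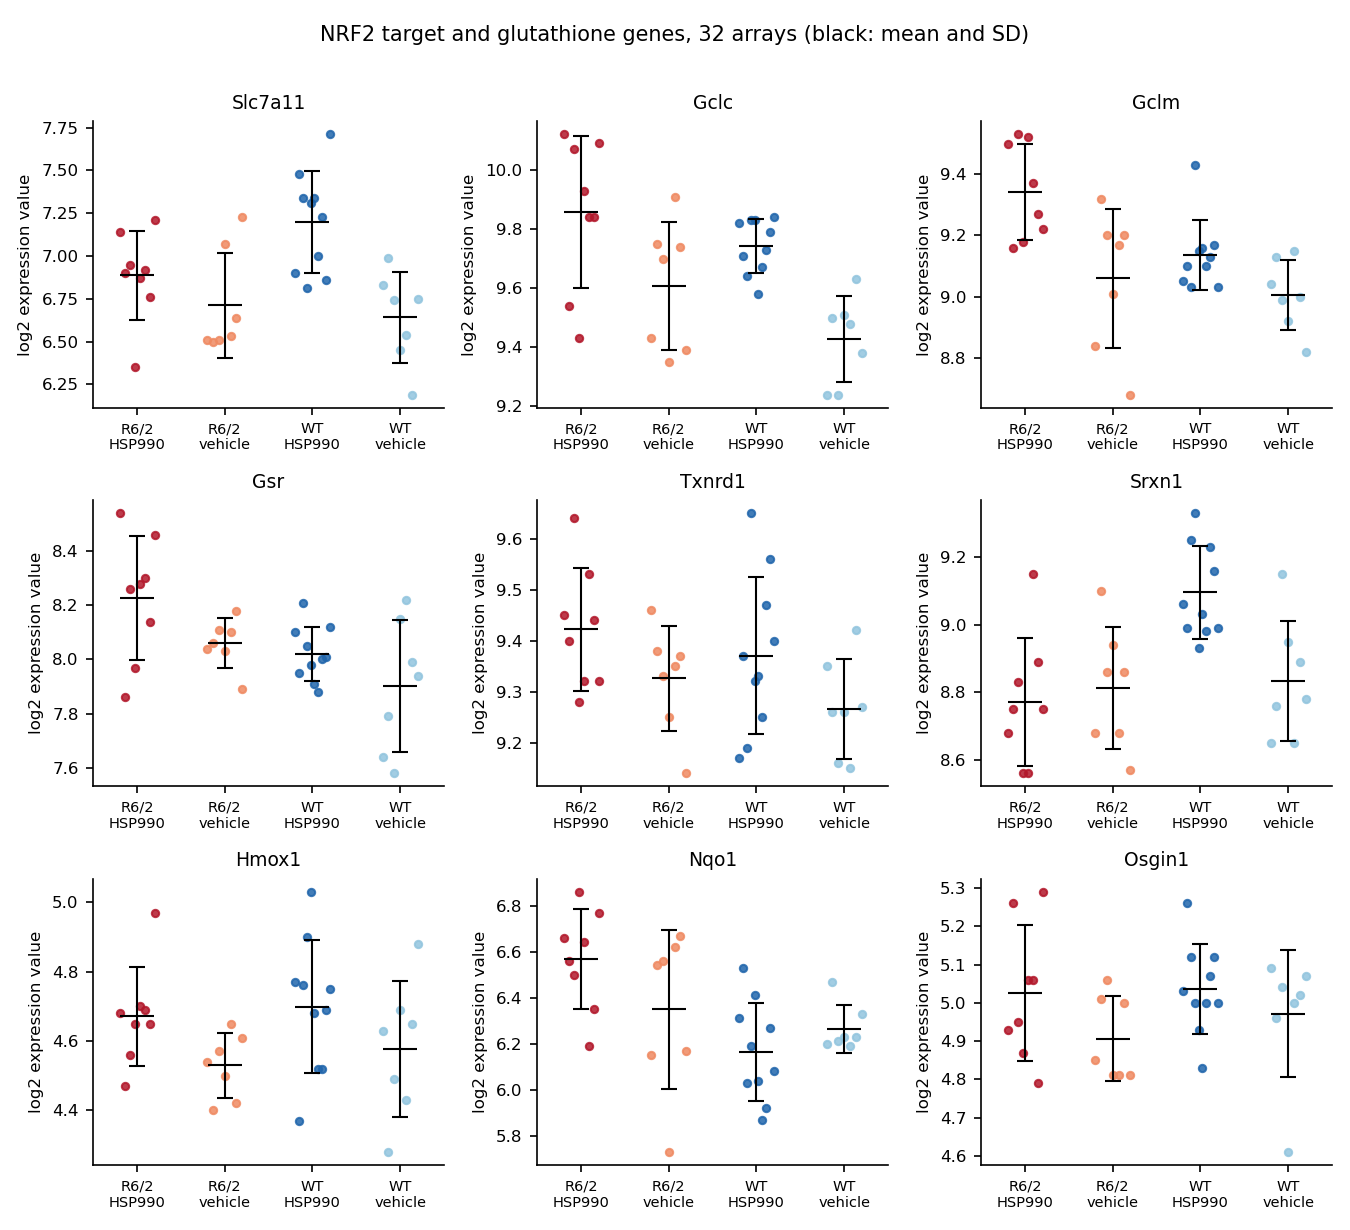
Log2 expression value of each of the 9 genes on every array, in R6/2 HSP990, R6/2 vehicle, WT HSP990 and WT vehicle mice; points are arrays, black lines are means with SD, and each panel has its own scale. Slc7a11 and Srxn1 stand highest in WT HSP990 mice (means 7.20 and 9.10), Gclm and Nqo1 in R6/2 HSP990 mice (9.34 and 6.57).

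The response to HSP990 addresses which of these genes the inhibitor moves within hours in each genotype. In R6/2 mice Gclm rose, 1 of 9 genes, and none fell. Among all genes tested, 2.18% rose and 0.918% fell in that comparison. In WT mice Slc7a11 and Gclc rose, 2 of 9, and none fell, where 2.24% of all genes rose and 3.57% fell. The median log2 change of the 9 genes was 0.17 in R6/2 mice and 0.12 in WT mice, against 0.02 and -0.03 over all genes. A gene is said to rise or fall where limma gave an adjusted p under 0.05 with Benjamini-Hochberg adjustment over all 18193 genes. For each of the 9 genes the HSP990 and vehicle arrays overlapped in both genotypes. Across all genes, 0.671% had groups that did not overlap in R6/2 mice and 1.47% in WT mice.

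Slc7a11 encodes the cystine transporter subunit xCT, which imports the amino acid that limits glutathione synthesis (chromosome 3, 50364936 to 50499087, GRCm38.p6). In R6/2 mice its log2 values were 6.35, 6.91 and 7.21 (lowest, median and highest) with HSP990, against 6.50, 6.53 and 7.23 with vehicle. The highest vehicle array lay above every HSP990 array, and the change of 0.18 ± 0.14 log2 units (SE, n = 8 and 7) did not pass the test (limma adjusted p = 0.611). In WT mice the values were 6.81, 7.27 and 7.71 with HSP990, against 6.19, 6.74 and 6.99 with vehicle. All 10 WT HSP990 arrays stood above the mean of WT vehicle mice, and the groups overlapped at their edges. The rise was 0.55 ± 0.13 log2 units (n = 10 and 7), or 1.47-fold with a 95% interval of 1.22 to 1.78 (limma adjusted p = 0.00882). It passed in all 40 alternatives run, with adjusted p from 0.0051 to 0.0461. A second Slc7a11 probe set, 1420413_at, had a mean of 4.58, under the median of 5.77 over all probe sets. Its changes were 0.16 ± 0.10 in R6/2 mice and 0.17 ± 0.09 in WT mice (adjusted p = 0.484 and 0.365 over all probe sets).

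Gclc encodes the catalytic subunit of glutamate-cysteine ligase, the rate-limiting enzyme of glutathione synthesis (chromosome 9, 77754535 to 77794489). In R6/2 mice its log2 values were 9.43, 9.88 and 10.12 with HSP990, against 9.35, 9.70 and 9.91 with vehicle. The groups overlapped over most of their range, and the change of 0.25 ± 0.09 missed the threshold (adjusted p = 0.158). It passed without R6/2 HSP990 replicate 4 (0.31, adjusted p = 0.0495). In WT mice the values were 9.58, 9.76 and 9.84 with HSP990, against 9.24, 9.48 and 9.63 with vehicle. The HSP990 arrays were tightly grouped, with an SD of 0.09, and the groups overlapped at their edges. The rise was 0.31 ± 0.09 log2 units, 1.24-fold (adjusted p = 0.0307), with 10 of 10 arrays above the vehicle mean. Leaving out WT HSP990 replicate 4 or 10, or WT vehicle replicate 1, 3 or 7, ended the call (adjusted p = 0.0509 to 0.0845). The second Gclc probe set, 1455959_s_at, gave 0.27 ± 0.12 in R6/2 mice and 0.29 ± 0.11 in WT mice (adjusted p = 0.253 and 0.136).

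Gclm encodes the modifier subunit of the same ligase (chromosome 3, 122245487 to 122267215). In R6/2 HSP990 mice its log2 values were 9.16, 9.32 and 9.53, against 8.68, 9.17 and 9.32 in R6/2 vehicle mice. The low end of the vehicle group came from 2 arrays at 8.68 and 8.84, and the groups overlapped. The rise was 0.28 ± 0.08 log2 units, 1.22-fold, in 8 of 8 arrays (adjusted p = 0.0491). That call stood at the threshold and was lost in 29 of 40 alternatives (adjusted p from 0.024 to 0.216 over all of them), among them removal of the 2 arrays of strong 3' bias (0.26, adjusted p = 0.0989) and 3' bias as a covariate (0.27, adjusted p = 0.117). In WT mice Gclm ran from 9.03 to 9.43 with HSP990 and from 8.82 to 9.15 with vehicle, a change of 0.13 ± 0.08 (adjusted p = 0.394). The probe set 1439050_at gave similar changes that did not pass, 0.29 ± 0.14 in R6/2 mice and 0.24 ± 0.13 in WT mice.

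Gsr encodes glutathione reductase, which returns oxidised glutathione to its reduced form with NADPH (chromosome 8, 33653238 to 33698162). Its log2 values were 7.86, 8.27 and 8.54 in R6/2 HSP990 mice and 7.89, 8.06 and 8.18 in R6/2 vehicle mice. In WT mice they were 7.88, 8.00 and 8.21 with HSP990 and 7.58, 7.94 and 8.22 with vehicle. Both pairs of groups overlapped widely, and the changes of 0.17 ± 0.09 in R6/2 mice and 0.12 ± 0.09 in WT mice did not pass (adjusted p = 0.377 and 0.52). The second Gsr probe set, 1421816_at, spread far more widely, from 5.41 to 7.90 in R6/2 HSP990 mice. The value of 5.41 came from replicate 5, an array of strong 3' bias. The changes of this probe set, -0.16 ± 0.28 and 0.35 ± 0.27 in R6/2 and WT mice, did not pass. With 3' bias as a covariate they were 0.31 ± 0.16 and 0.09 ± 0.15, and neither passed.

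Neither measured member of the thioredoxin system passed the test with HSP990 over genes. Srxn1 encodes sulfiredoxin, which restores overoxidised peroxiredoxins (chromosome 2, 152105524 to 152111376). In R6/2 mice its log2 values were 8.56, 8.75 and 9.15 with HSP990, against 8.57, 8.86 and 9.10 with vehicle, a change of -0.04 ± 0.09 (95% interval -0.22 to 0.14). In WT mice they were 8.93, 9.05 and 9.33 with HSP990, against 8.65, 8.78 and 9.15 with vehicle. All 10 HSP990 arrays stood above the vehicle mean, and the highest vehicle array reached into the HSP990 range. The WT change of 0.26 ± 0.08 missed the threshold (adjusted p = 0.0579), and it passed in 8 of 40 alternatives. Txnrd1, the cytosolic thioredoxin reductase (chromosome 10, 82833951 to 82897724), ran from 9.28 to 9.64 in R6/2 HSP990, 9.14 to 9.46 in R6/2 vehicle, 9.17 to 9.65 in WT HSP990 and 9.15 to 9.42 in WT vehicle mice. Its changes were 0.10 ± 0.07 in R6/2 mice and 0.10 ± 0.06 in WT mice (adjusted p = 0.548 and 0.419). A dim Txnrd1 probe set, 1424486_a_at, with a mean of 4.80, rose in WT mice by 0.49 ± 0.14 when every probe set was tested on its own (adjusted p = 0.0429, where 2.66% of all probe sets rose). With 3' bias as a covariate that adjusted p was 0.0511.

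Hmox1, the heme oxygenase gene that is a classical marker of oxidative and heat stress (chromosome 8, 75093618 to 75100593), was not among the genes that passed. Its log2 values were 4.47, 4.66 and 4.97 in R6/2 HSP990 mice and 4.40, 4.54 and 4.65 in R6/2 vehicle mice. In WT mice they were 4.37, 4.72 and 5.03 with HSP990 and 4.28, 4.63 and 4.88 with vehicle. All of these values are dim for this array, where changes tend to be compressed. Its changes were 0.14 ± 0.09 in R6/2 mice and 0.12 ± 0.08 in WT mice, and the 95% intervals reached 0.32 and 0.29 (adjusted p = 0.456 and 0.467). Nqo1, a quinone reductase widely used as a readout of NRF2 (chromosome 8, 107388225 to 107403205), had changes of 0.22 ± 0.12 in R6/2 mice and -0.10 ± 0.11 in WT mice (adjusted p = 0.373 and 0.704). Osgin1, an oxidative stress-induced growth inhibitor (chromosome 8, 119425882 to 119446257), was also dim, with a mean of 4.99, and had changes of 0.12 ± 0.08 and 0.06 ± 0.07 in R6/2 and WT mice.

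**Figure D2:**
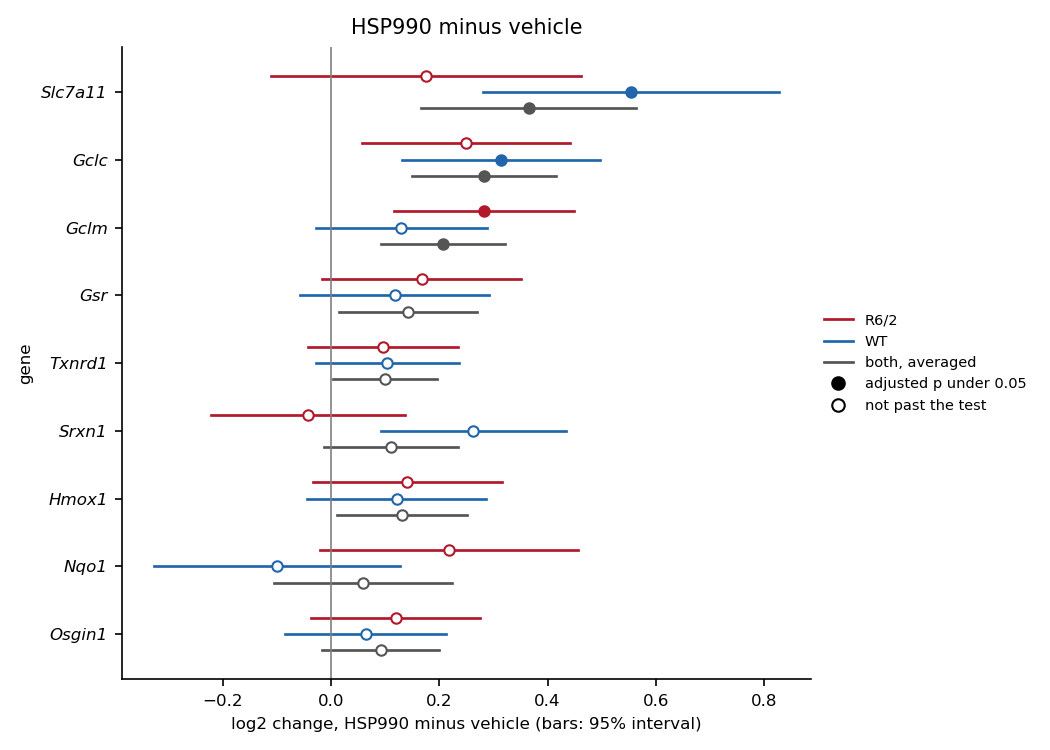
Log2 change (HSP990 minus vehicle) of each gene in R6/2 mice, WT mice and averaged over both; points are estimates, bars 95% intervals, and filled points have an adjusted p under 0.05. The averaged estimates all lie above 0, between 0.06 and 0.37, and those of Slc7a11, Gclc and Gclm are filled.

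Averaged over both genotypes, 3 of 9 genes rose and none fell: Slc7a11 (0.37 ± 0.10, adjusted p = 0.0156), Gclc (0.28 ± 0.07, 0.00476) and Gclm (0.21 ± 0.06, 0.0185). Of all genes, 3.99% rose and 3.7% fell in this comparison. The estimates of all 9 genes were positive, with a median of 0.13 against -0.01 over all genes. For the other 6 genes they lay between 0.06 for Nqo1 and 0.14 for Gsr, and none passed over genes. Txnrd1 passed as the mean of its probe sets (0.20, adjusted p = 0.0189). Its dim probe set 1424486_a_at rose when tested singly (0.35 ± 0.11, adjusted p = 0.039), where 4.07% of all probe sets rose. The second probe set of Gclc also rose (0.28, adjusted p = 0.0288). Those of Slc7a11 (0.16, adjusted p = 0.166) and Gclm (0.27, adjusted p = 0.0934) did not pass. Per array, the mean log2 value over the 9 genes ran from 7.46 to 7.79 in R6/2 HSP990, 7.39 to 7.57 in R6/2 vehicle, 7.47 to 7.69 in WT HSP990 and 7.40 to 7.47 in WT vehicle mice. The R6/2 groups overlapped in that mean, and the WT groups lay next to each other at 7.47.

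Genotype was compared within each treatment. On vehicle, R6/2 against WT mice, 0 of 9 genes passed in limma at the adjusted threshold and 0 at an unadjusted p under 0.05. The estimates ran from -0.07 for Osgin1 to 0.18 for Gclc, with a median of 0.06 against -0.01 over all genes. In the same comparison 11.9% of all genes were higher and 9.6% lower in R6/2 mice, and 3.9% had groups that did not overlap. On HSP990, Nqo1 and Gclm were higher and Srxn1 lower in R6/2 mice, 3 of 9 genes, where 22.6% of all genes were higher, 11% were lower and 9.4% had groups that did not overlap. The share of members called was thus close to the background of that comparison, and their median difference was 0.05, against 0.04 over all genes.

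Nqo1 had log2 values of 6.19, 6.60 and 6.86 in R6/2 HSP990 mice, against 5.87, 6.14 and 6.53 in WT HSP990 mice. All 8 R6/2 arrays stood above the WT mean, and the ranges overlapped. The difference was 0.40 ± 0.11 log2 units, 1.32-fold (adjusted p = 0.00351), and it passed in all 40 alternatives (adjusted p up to 0.0195). On vehicle the Nqo1 values were 5.73, 6.54 and 6.67 in R6/2 mice and 6.19, 6.23 and 6.47 in WT mice, so the R6/2 arrays fell on both sides of the WT range (0.08 ± 0.12). Gclm was higher on HSP990 by 0.21 ± 0.07 in 8 of 8 R6/2 arrays (adjusted p = 0.0302). Its call was lost in 8 of 40 alternatives, among them removal of the 2 arrays of strong 3' bias (0.18, adjusted p = 0.0706), 3' bias as a covariate (0.19, adjusted p = 0.0781), and removal of R6/2 HSP990 replicate 1, 3 or 5 or of WT HSP990 replicate 3 or 10 (adjusted p = 0.051 to 0.0736). The second Gclm probe set was also higher, by 0.35 ± 0.13 (adjusted p = 0.0351 over all probe sets). Slc7a11 was not called, at -0.31 ± 0.13 (adjusted p = 0.0631), and nor was Gsr, at 0.21 ± 0.08 (adjusted p = 0.0523). They passed in 8 and 9 of 40 alternatives.

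**Figure D3:**
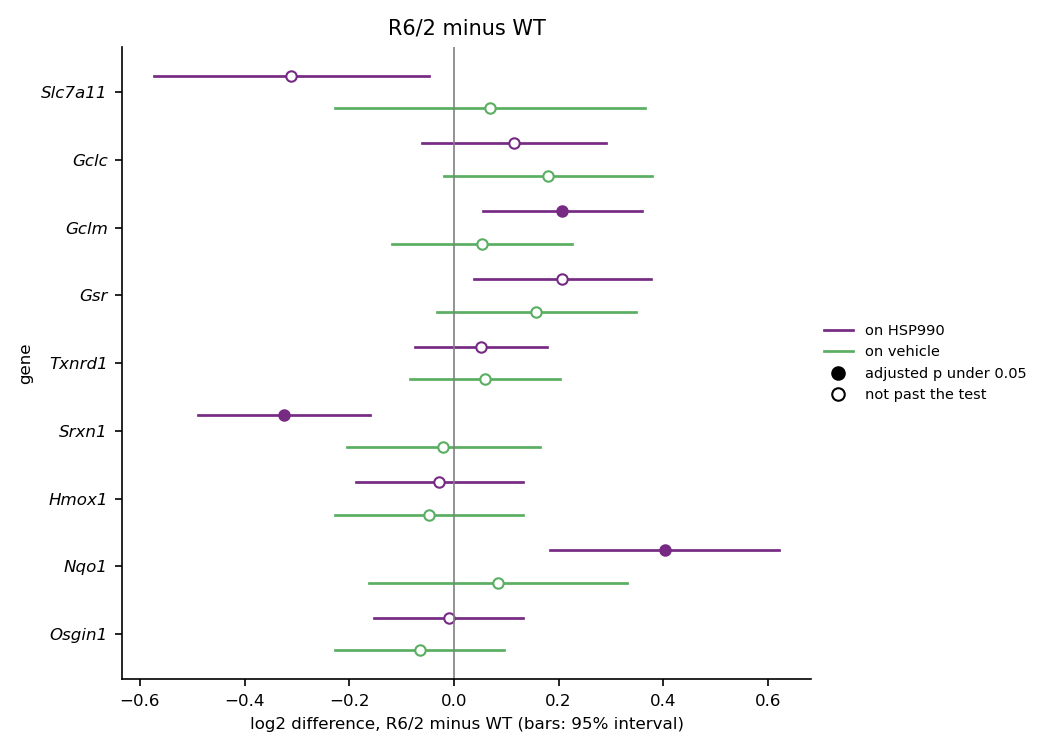
Log2 difference (R6/2 minus WT) of each gene on HSP990 and on vehicle; points are estimates, bars 95% intervals, and filled points have an adjusted p under 0.05. On vehicle no point is filled; on HSP990 Nqo1 (0.40) and Gclm (0.21) are higher and Srxn1 (-0.32) is lower.

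Whether the response differed between the genotypes was tested directly as R6/2 response minus WT response. In limma 0 of 9 genes passed, 1 had an unadjusted p under 0.05, and 0.247% of all genes passed. That gene was Srxn1, with an interaction of -0.30 ± 0.12 (unadjusted p = 0.0175, adjusted p = 0.271). Slc7a11 had -0.38 ± 0.19 (95% interval -0.78 to 0.02, adjusted p = 0.413) and Nqo1 0.32 ± 0.16 (-0.01 to 0.65, adjusted p = 0.409). The intervals are wide, so the rises of Slc7a11 and Gclc in WT mice and of Gclm in R6/2 mice are not shown to differ between genotypes.

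Srxn1 had 4 probe sets, and they disagreed. The brightest, 1426875_s_at, gave log2 values of 8.56, 8.75 and 9.15 in R6/2 HSP990 mice, against 8.93, 9.05 and 9.33 in WT HSP990 mice, with 7 of 8 R6/2 arrays below the WT mean. The difference was -0.32 ± 0.08 (adjusted p = 0.00183 over genes). For 1451680_at the values were 6.96, 7.02 and 7.24 in R6/2 HSP990 mice and 7.51, 7.63 and 8.04 in WT HSP990 mice, so that the highest R6/2 array lay below the lowest WT array. Its difference was -0.59 ± 0.06 (adjusted p = 1.36e-08 over all probe sets, where 11.9% were lower). On vehicle the same probe set had 7.06, 7.15 and 7.31 in R6/2 mice and 7.27, 7.45 and 7.62 in WT mice. It was lower in R6/2 mice by a log2 difference of -0.26 ± 0.07 (adjusted p = 0.00917, where 7.68% of probe sets were lower), where the brightest probe set gave -0.02 ± 0.09. It also rose with HSP990 in WT mice, by 0.23 ± 0.07 (adjusted p = 0.0344).

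The dim probe set 1425351_at, with a mean of 5.68, was lower on HSP990 in R6/2 mice by -0.54 ± 0.13 (adjusted p = 0.00192). The probe set 1419942_at showed no call in any comparison, with -0.03 ± 0.08 on HSP990 (95% interval -0.19 to 0.13). The values of the brightest probe set went with 3' bias over the 32 arrays (r = -0.525, and -0.471 after subtraction of group means), and R6/2 HSP990 had the array of highest bias. With 3' bias as a covariate the difference on HSP990 was -0.24 ± 0.08 for the brightest probe set (adjusted p = 0.0224 over genes) and -0.61 ± 0.07 for 1451680_at (8.69e-08). It was -0.28 ± 0.09 for 1425351_at (0.0162). Without the 2 arrays of strong 3' bias the brightest Srxn1 probe set gave -0.29 (adjusted p = 0.00576).

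**Figure D4:**
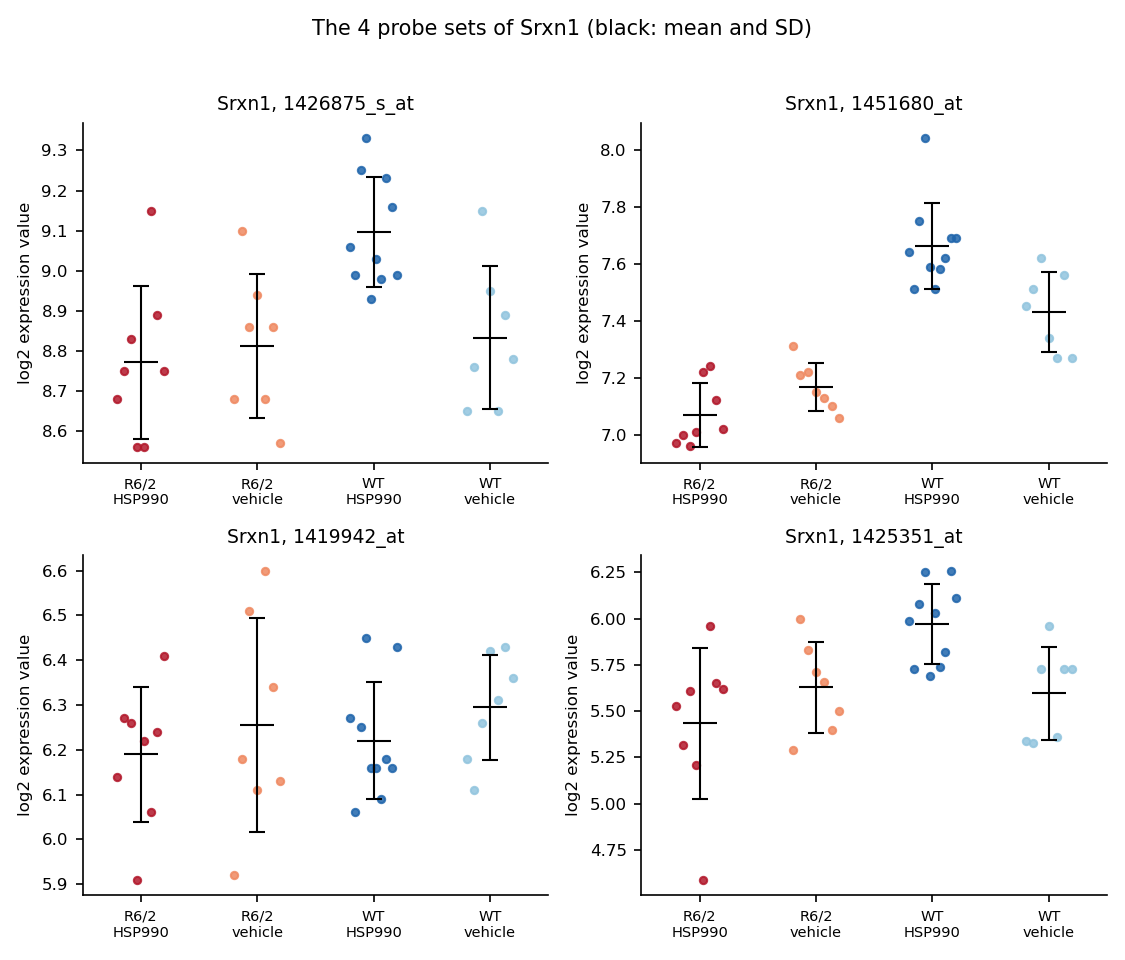
Log2 expression value of the 4 Srxn1 probe sets on every array, in R6/2 HSP990, R6/2 vehicle, WT HSP990 and WT vehicle mice; points are arrays, black lines means with SD, and each panel has its own scale. For 1451680_at the R6/2 HSP990 arrays (6.96 to 7.24) lie below all WT HSP990 arrays (7.51 to 8.04), and for 1419942_at the groups lie at the same level (means 6.19 and 6.22).

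Among themselves the 9 genes did not vary as one block. Over the 32 arrays, which share the 4 group means and any array-wide quality, Gclc correlated with Gsr (r = 0.758, and 0.700 after subtraction of group means) and with Gclm (0.722 and 0.578). Slc7a11 had low correlations with Gclc (0.242 and -0.0637) and to Gsr (0.06 and -0.02), and Srxn1 ran against Nqo1 (-0.482 and -0.283). The genes of the whole array closest to Slc7a11 were Slc16a1 (r = 0.716), Prickle1 (0.686) and Tnc (0.680), and those closest to Gclc were Dph7 (0.862), Mmgt1 (0.836) and Casp2 (0.831). Gclm lay closest to Nipbl (0.819), Praf2 (0.796) and Cnih1 (0.795). Srxn1 lay closest to Dazap1 (0.738), Slc29a1 (0.726) and Epb41l3 (0.712), and Nqo1 to Itgb3bp (0.766), Rdh10 (0.765) and Sod2 (0.760). These are descriptions over 32 arrays of the same 4 groups.

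The regulators of NRF2 were set beside the members. Of 12 measured genes of that list, 0 passed in limma with HSP990 in R6/2 mice and 0 in WT mice, with 2 and 3 at an unadjusted p under 0.05. The list's median log2 change was 0.06 in R6/2 mice and -0.01 in WT mice, against 0.02 and -0.03 over all genes. Nfe2l2, the gene of NRF2 itself, had log2 values of 7.59, 7.78 and 8.16 in R6/2 HSP990, 6.72, 7.94 and 8.26 in R6/2 vehicle, 7.36, 7.56 and 7.84 in WT HSP990 and 6.89, 7.58 and 7.68 in WT vehicle mice. Its changes were 0.04 ± 0.15 in R6/2 mice and 0.10 ± 0.14 in WT mice. Keap1, the sensor that restrains NRF2, changed by 0.01 ± 0.07 and -0.13 ± 0.07, and Bach1, a repressor at the same elements, by 0.23 ± 0.10 and 0.11 ± 0.09, none of which passed. In R6/2 against WT mice on HSP990, 3 of 12 were higher and none was lower, where 22.6% of all genes were higher and 11% lower. The 3 were Nfe2l3 (0.83 ± 0.16), a relative of NRF2, Bach1 (0.33 ± 0.09) and Keap1 (0.21 ± 0.07). None of the 12 passed on vehicle in limma, where 4 had an unadjusted p under 0.05. Nfe2l3 was higher there too once the 2 arrays of strong 3' bias were left out (0.57, adjusted p = 0.028). With the covariate 4 of 12 were higher on HSP990, the fourth being Sqstm1 (0.25). Averaged over genotypes, 0 of 12 passed with HSP990 in limma, where 3.99% of all genes rose. Sqstm1 had 0.23 there (adjusted p = 0.148). It rose without the 2 arrays of strong 3' bias (0.28, adjusted p = 0.0481) and with the covariate (0.28, adjusted p = 0.00197).

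Among 21 other measured NRF2 targets, none passed with HSP990 in R6/2 mice (0 in limma, 3 at an unadjusted p under 0.05), and in WT mice 3 fell and none rose. Of all genes, 3.57% fell and 2.24% rose in WT mice. The list's median log2 change was 0.05 in R6/2 mice and -0.10 in WT mice. Cbr3, a carbonyl reductase, had log2 values of 8.80, 9.45 and 9.59 in WT HSP990 mice, against 9.91, 9.95 and 10.36 in WT vehicle mice. These groups did not overlap, and Cbr3 fell by 0.66 log2 units (SE 0.13, adjusted p = 0.0011). Cbr1, its relative, fell by 0.23 (adjusted p = 0.0466), and the third gene was the exporter Abcc4 (by 0.40, adjusted p = 0.0404), named after its value was seen. Without the 2 arrays of strong 3' bias the count was 1, as Cbr1 and Abcc4 no longer passed (adjusted p = 0.0558 and 0.0967), and with the covariate it was 2. Between genotypes this list went both ways. On HSP990, 8 of 21 were higher and 5 lower in R6/2 mice, where 22.6% of all genes were higher and 11% lower. On vehicle 3 were higher and 4 lower, where 11.9% of all genes were higher and 9.6% lower. The counts were 8 and 4 on HSP990 and 4 and 5 on vehicle without the 2 arrays of strong 3' bias, and with the covariate 7 and 3 and 4 and 5. The glucuronate enzyme Ugdh was higher in R6/2 mice on HSP990 (0.70 ± 0.08) and on vehicle (0.35 ± 0.10). Blvrb, a biliverdin and flavin reductase, was lower on both (-0.64 ± 0.06 and -0.68 ± 0.07), as were the epoxide hydrolase Ephx1 (-0.56 ± 0.11 and -0.88 ± 0.13) and Cbr3 (-0.59 ± 0.12 and -1.01 ± 0.14). Its relative Cbr1 was higher on both (0.46 ± 0.07 and 0.23 ± 0.08, the second with an adjusted p of 0.0516 without the 2 arrays of strong 3' bias), and the biliverdin reductase Blvra on HSP990 (0.40 ± 0.07).

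Of 44 further measured genes of glutathione synthesis, use and turnover, 2 rose with HSP990 in R6/2 mice and none fell, where 2.18% of all genes rose and 0.918% fell. In WT mice 1 rose and 2 fell, where 2.24% of all genes rose and 3.57% fell. Their median change was 0.05 in R6/2 mice and -0.05 in WT mice. The product of Chac1 cleaves glutathione, and this gene had the largest rise of the list in both genotypes. It had log2 values of 7.35, 7.95 and 8.51 in R6/2 HSP990 mice, against 6.65, 7.02 and 7.22 in R6/2 vehicle mice, with no overlap. In WT mice they were 7.14, 7.68 and 8.11 with HSP990 and 6.65, 6.97 and 7.28 with vehicle, with overlap at the edges. The rise was 0.92 ± 0.15 in R6/2 mice and 0.74 ± 0.14 in WT mice (adjusted p = 0.000178 and 0.000745). Its upstream window held the TGATGCAA element once, at 193 bases before the start. Gpx7, an endoplasmic reticulum peroxidase, rose in R6/2 mice (0.40 ± 0.07, adjusted p = 0.00107). Glrx5, a mitochondrial glutaredoxin of iron-sulfur assembly, fell in WT mice by 0.17 (adjusted p = 0.0393), and so did Chac2, a relative of Chac1 named after its value was seen, by 0.32. The count of 2 that fell in WT mice was 0 without the 2 arrays of strong 3' bias and 1 with the covariate. In R6/2 mice 1 gene fell under either setting, the mitochondrial glutaredoxin gene Glrx2 (-0.38 without the arrays and -0.36 with the covariate). On HSP990, 15 of 44 were higher and 4 lower in R6/2 mice, where 22.6% of all genes were higher and 11% lower. Glrx (0.84 ± 0.10) and Gsto1 (0.84 ± 0.13) led those higher. On vehicle 6 were higher, Glrx among them (0.51 ± 0.11), and 2 lower, where 11.9% of all genes were higher and 9.6% lower. The 2 lower were Gstm2 and Slc1a1, named after their values were seen. Without the 2 arrays of strong 3' bias none was lower on vehicle (adjusted p = 0.106 and 0.0701 for these genes). With the covariate 2 were lower. Slc1a1 still passed, Gstm2 did not (adjusted p = 0.0565), and Lancl1, named after its value was seen, did (-0.26, adjusted p = 0.0311). Gstp1, a glutathione transferase, was higher on HSP990 (0.31 ± 0.06) and on vehicle (0.18 ± 0.06).

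Of 15 further thioredoxin and peroxiredoxin genes, 3 rose with HSP990 and none fell in R6/2 mice, where 2.18% of all genes rose and 0.918% fell. In WT mice 2 rose and 3 fell, where 2.24% of all genes rose and 3.57% fell. The list's medians were 0.03 and -0.10 in R6/2 and WT mice. Sesn2, a stress-induced sestrin, rose in R6/2 mice (0.68 ± 0.11, adjusted p = 0.00026) and in WT mice (0.40 ± 0.11, 0.0172). Sesn3, another sestrin, rose in WT mice (0.45 ± 0.08). The others, named after their values were seen, were Txn2 and Msrb1, which rose in R6/2 mice by 0.23 and 0.60, and Txnrd2, Sesn1 and Nxn, which fell in WT mice by 0.27, 0.30 and 0.34. The R6/2 count was 2 without the 2 arrays of strong 3' bias, where Msrb1 had an adjusted p of 0.0594, and 1 with the covariate, where Txn2 did not pass either (0.107). The call of Txnrd2 was lost under both settings (adjusted p = 0.0837 and 0.0721). On HSP990, the thioredoxin gene Txn1 (0.55 ± 0.07) and the peroxiredoxins Prdx4 (0.67 ± 0.10) and Prdx2 (0.41 ± 0.07) were among 5 genes higher in R6/2 mice. The methionine sulfoxide reductase Msra (-0.47 ± 0.09) and Sesn3 (-0.47 ± 0.08) were lower, where 22.6% of all genes were higher and 11% lower. On vehicle Txn1, Prdx2 and Prdx4 were higher (0.38, 0.31 and 0.32), and Msra and Txn2 were lower (-0.35 and -0.19). Of all genes, 11.9% were higher and 9.6% lower on vehicle. Txn2 had an adjusted p of 0.084 there without the 2 arrays of strong 3' bias.

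NADPH supply, on which both systems depend, had 12 measured genes. With HSP990 1 rose and none fell in R6/2 mice, where 2.18% of all genes rose and 0.918% fell. In WT mice 1 rose and 1 fell, where 2.24% of all genes rose and 3.57% fell. The list's medians were 0.05 and -0.10 in R6/2 and WT mice. Mthfd2, a mitochondrial folate enzyme, rose in both (0.50 ± 0.09 in R6/2 mice and 0.30 ± 0.09 in WT mice), and Mthfd1, the cytosolic folate enzyme, fell in WT mice by 0.32. Averaged over genotypes, Idh2, the mitochondrial isocitrate dehydrogenase, fell by 0.21 (adjusted p = 0.0249). On HSP990, where 22.6% of all genes were higher and 11% lower in R6/2 mice, 5 of this list were higher and 1 lower. The pentose phosphate gene Pgd was among those higher (0.77 ± 0.11), and the folate enzyme Aldh1l1 was lower (-0.18 ± 0.07). Without the 2 arrays of strong 3' bias 4 were higher and none was lower, as Aldh1l1 (adjusted p = 0.051) and Mthfd1 (0.0827) no longer passed. With the covariate 4 were higher and 1 lower. On vehicle 2 were higher and 1 lower, where 11.9% of all genes were higher and 9.6% lower. The lower gene was Aldh1l1 (-0.36 ± 0.07, limma adjusted p = 0.000548). These vehicle counts were the same under both 3' bias settings. The mitochondrial transhydrogenase Nnt was higher on HSP990 (0.55 ± 0.11) and on vehicle (0.40 ± 0.12). Of 12 measured heme genes, 1 rose with HSP990 in each genotype, and 1 fell in WT mice, the heme exporter gene Flvcr1 (by 0.28). The shares of all genes are those given above for NADPH supply. The gene that rose was Slc40a1, the iron exporter ferroportin, by 0.54 ± 0.13 in R6/2 mice and 0.47 ± 0.12 in WT mice. Between genotypes Flvcr1 was higher in R6/2 mice on HSP990 (0.93 ± 0.07) and on vehicle (0.47 ± 0.08), as was Fech, whose product inserts the iron of heme (0.49 ± 0.06 and 0.24 ± 0.07). On HSP990 the constitutive heme oxygenase gene Hmox2 (0.36 ± 0.06) and the heme synthesis genes Urod (0.41 ± 0.09) and Uros (0.29 ± 0.06) were higher too. Alas2, the erythroid synthase gene named after its value was seen, was lower on HSP990 (-0.59) and on vehicle (-0.89). In all, 5 heme genes were higher and 1 lower on HSP990, and 2 higher and 1 lower on vehicle. Of 5 measured red blood cell markers, Alas2 among them, 2 were lower on HSP990 and 1 on vehicle. Of all genes, 11% and 9.6% were lower.

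ATF4 targets were listed because Slc7a11 is one of them. Of 16 measured genes of the list, 3 rose with HSP990 in R6/2 mice and 6 in WT mice, and none fell. Of all genes, 2.18% rose and 0.918% fell in R6/2 mice, and 2.24% rose and 3.57% fell in WT mice. The list's median log2 change was 0.14 in R6/2 mice and 0.25 in WT mice, against 0.02 and -0.03 over all genes. Chac1, Sesn2 and the arginine transporter gene Slc7a1 (0.34 ± 0.09 and 0.27 ± 0.08) rose in both genotypes. Without the 2 arrays of strong 3' bias and with the covariate, 2 genes rose in R6/2 mice and 7 in WT mice. Slc7a1 lost its R6/2 call (adjusted p = 0.0611 and 0.102), and the amino acid transporter gene Slc7a5 passed in WT mice (0.36 and 0.31). Ddit3, which encodes the stress factor CHOP, had log2 values of 8.62, 8.70 and 8.78 in R6/2 HSP990, 8.41, 8.54 and 8.81 in R6/2 vehicle, 9.04, 9.40 and 9.62 in WT HSP990 and 8.44, 8.81 and 9.03 in WT vehicle mice. It rose in WT mice by 0.59 ± 0.08 (adjusted p = 1.39e-05) with no overlap and changed by 0.12 ± 0.09 in R6/2 mice. The difference of the responses, -0.47 ± 0.12, did not pass (adjusted p = 0.0778). Trib3, a pseudokinase gene, rose in WT mice (0.36 ± 0.08), and the sixth was Atf4 itself (0.42, adjusted p = 0.00991), named after its value was seen. Nupr1, a stress-induced chromatin protein gene, did not pass with HSP990 and was lower in R6/2 mice on HSP990 (-0.96 ± 0.12) and on vehicle (-0.72 ± 0.14). Of the 16, 3 were higher and 5 lower in R6/2 mice on HSP990, where 22.6% of all genes were higher and 11% lower. On vehicle 2 were higher and 2 lower, where 11.9% of all genes were higher and 9.6% lower. Slc7a1 was higher on both (0.39 and 0.32), Trib3 lower on both (-0.54 and -0.25) and Ddit3 lower on HSP990 (-0.67). Without the 2 arrays of strong 3' bias the counts were 2 and 4 on HSP990 and 3 and 1 on vehicle. Trib3 then had a limma adjusted p of 0.062 on vehicle. With the covariate the counts were 2 and 3 on HSP990 and 3 and 3 on vehicle. In the direct test of the difference between genotypes, 0 genes of each of these lists passed in limma, with between 1 and 6 a list at an unadjusted p under 0.05.

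**Figure D5:**
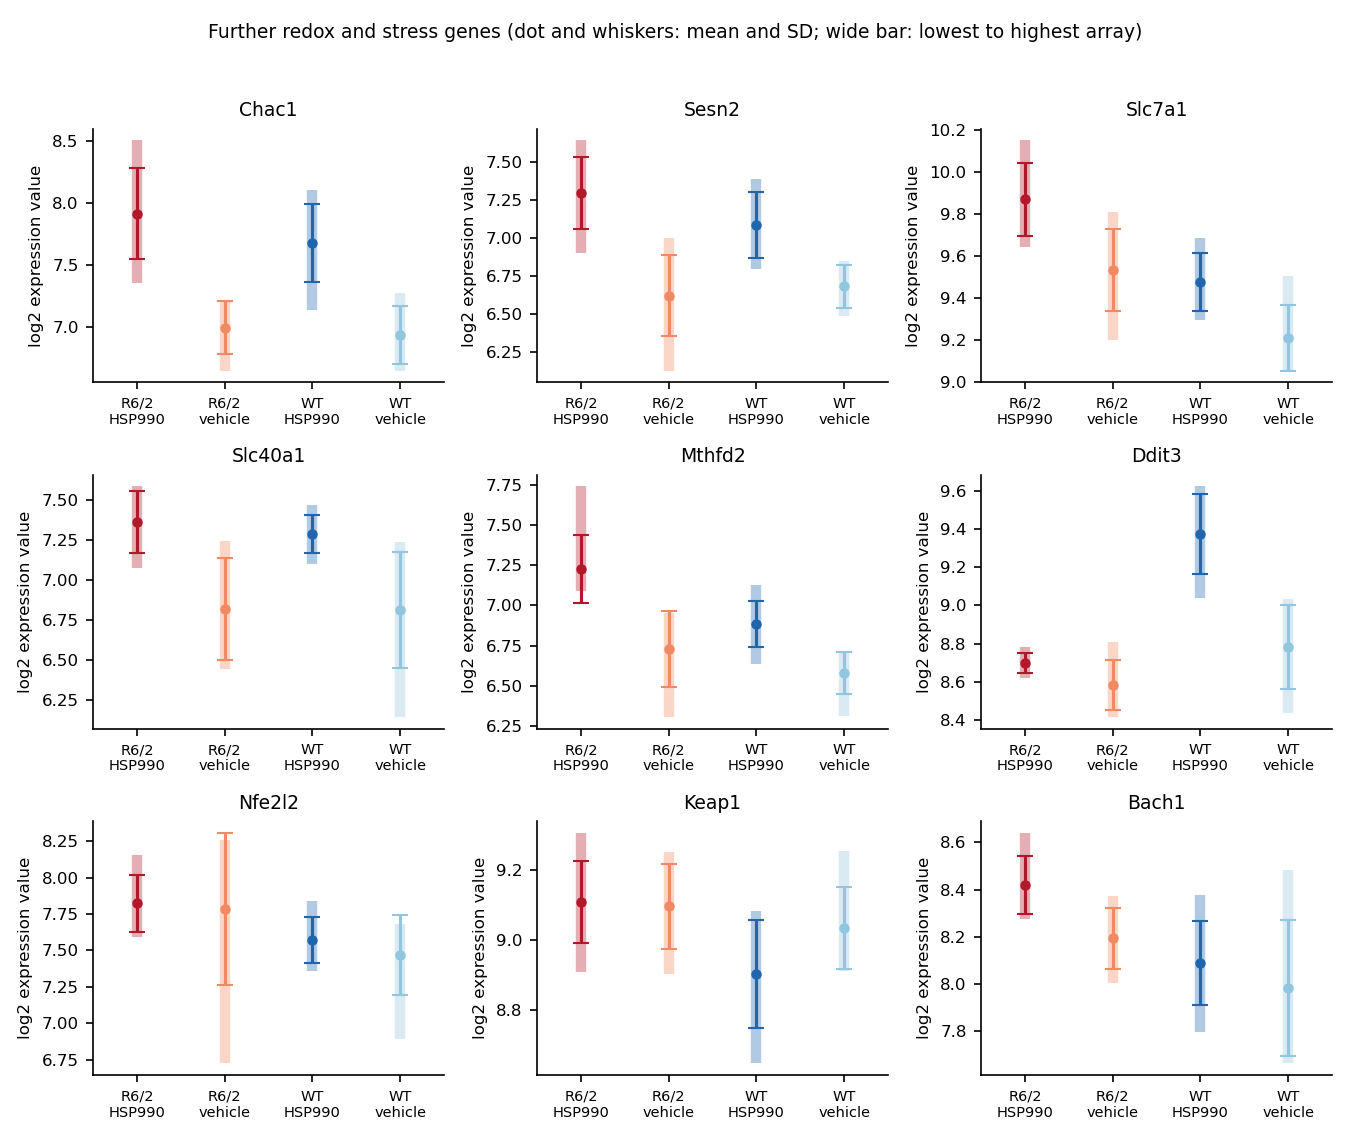
Log2 expression value of 9 further genes in R6/2 HSP990, R6/2 vehicle, WT HSP990 and WT vehicle mice; dots and whiskers are means with SD, wide bars run from the lowest to the highest array, and each panel has its own scale. Chac1 (means 7.92, 7.00, 7.68 and 6.94) and Sesn2 are high on HSP990 in both genotypes, while Nfe2l2 overlaps in all groups.

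Markers of other cell types were read beside these results. With HSP990, 0 of 9 microglia markers passed in limma in R6/2 mice and 0 in WT mice, with 1 and 2 at an unadjusted p under 0.05. Of 9 oligodendrocyte markers 0 passed in either genotype, with 0 and 2 at an unadjusted p under 0.05, and their median log2 change was -0.04 in R6/2 mice and 0.26 in WT mice. Of 10 astrocyte markers 1 fell in R6/2 mice and 1 rose in WT mice, with medians of -0.13 and 0.00. Of all genes, 0.918% fell in R6/2 mice and 2.24% rose in WT mice. The astrocyte marker that fell was Fgfr3, which did not pass without the 2 arrays of strong 3' bias (adjusted p = 0.0944), and the oligodendrocyte marker Ugt8a rose in WT mice without them (0.68, adjusted p = 0.0176). Between genotypes, 7 of 8 medium spiny neuron markers were lower in R6/2 mice on either treatment, where 9.6% of all genes were lower on vehicle. On HSP990, where Nqo1, Gclm and Srxn1 differed, 6 of 9 microglia, 5 of 9 oligodendrocyte and 5 of 10 astrocyte markers were lower in R6/2 mice, and 1 astrocyte marker was higher, where 11% of all genes were lower and 22.6% higher. Without the 2 arrays of strong 3' bias the counts lower were 5, 3 and 5, and with the covariate 3, 3 and 2, with no astrocyte marker higher. On vehicle 3 of 9 microglia, 1 of 9 oligodendrocyte and 0 of 10 astrocyte markers were lower, where 9.6% of all genes were lower. Both 3' bias settings gave the same vehicle counts. The mean log2 level of the astrocyte markers ran from 9.65 to 9.89 in R6/2 HSP990 and from 9.82 to 10.13 in WT HSP990 mice. The mean level of 8 choroid plexus markers varied widely within groups, from 5.63 to 8.73 in R6/2 HSP990, 5.39 to 7.22 in R6/2 vehicle, 5.56 to 9.58 in WT HSP990 and 5.54 to 9.06 in WT vehicle mice. With HSP990 0 of 8 passed in limma in either genotype (0 in R6/2 mice and 1 in WT mice at an unadjusted p under 0.05), and their median change was 0.42 in R6/2 mice and -0.57 in WT mice. The mean level of 6 cortex markers also varied widely, from 6.04 to 8.23 in R6/2 HSP990, 5.95 to 8.62 in R6/2 vehicle, 6.06 to 8.24 in WT HSP990 and 6.24 to 8.34 in WT vehicle mice. Of 9 endothelium markers, 1 rose and 1 fell with HSP990 in each genotype. In R6/2 mice neither passed under either 3' bias setting. The part of these shifts in the changes of the 9 genes was not tested.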

How the data were processed

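Total RNA was labelled with biotin by in vitro transcription from the 3' end and hybridised to an Affymetrix array, per the labels' protocols. The deposited values are log2 expression values, as their range (2.15 to 14.7) shows, and the authors' array medians, all between 5.73 and 5.78, show values already brought to 1 scale. Their normalisation method was not given in the sources used here. Of 45101 probe sets, 64 were controls, and of the others 34945 carried 1 symbol on the platform, 932 several and 9160 none. RefSeq gave current symbols, and for 204 probe sets the older one stayed.

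The brightest single-gene probe set over all arrays stood for a gene, without a filter on low values. The 4 groups were fitted together over all 32 arrays with limma 3.58.1 in R 4.3.3, with its moderated two-sided test and Benjamini-Hochberg adjustment over 18193 genes, called at an adjusted p under 0.05. The probe sets were also tested singly over all 34945. Figures and motif searches used Python 3.11.15 with pandas 2.3.3, numpy 2.4.6 and matplotlib 3.10.9. The fit was tested on simulated data.

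The members, lists and tests were chosen with earlier results of these data known. From each further list, the text names the genes called in any comparison, or the 6 with the smallest p where more than 6 were called. Nfe2l2, Keap1 and Bach1 were always named, and for each called member the 3 genes of highest Pearson r over the arrays. Alternatives were quantile normalisation, dropping dim probe sets, averaging a gene's probe sets, testing all probe sets, fitting only the compared groups, a variance model with trend and robust settings, the replicate number as a block, 3' bias as a covariate, removal of 2 arrays of strong 3' bias, and each array left out. The 3' bias alternatives for the further lists, and the covariate for single probe sets, were added after the data were seen. The closest arrays, WT HSP990 replicates 9 and 10, differed by a root mean square of 0.202 log2 units (0.243 for the next pair) and were kept as 2 samples.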

Additional observations from a re-analysis of the deposited data

Results flagged for a closer look

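Of the 36 combinations of 9 genes and 4 groups, 2 had an array whose gap to the nearest other array was unusually wide for the range of its group; chance alone gives about 1 in 20. For Gclm, WT HSP990 replicate 4 stood at 9.43, where the other 9 arrays lay between 9.03 and 9.17. For Osgin1, WT vehicle replicate 4 stood at 4.61, where the other 6 arrays lay between 4.96 and 5.09.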

How the results depend on the processing

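The direction of all 9 members in the averaged response was the same in all gene-level alternatives run. The 1 member called for HSP990 in R6/2 mice became 0 with the mean of the probe sets, only the groups compared, the trended and robust variance, the replicate block, the 3' bias covariate, without the 2 arrays of strong 3' bias and with all probe sets. The 2 called in WT mice became 1 with the replicate block, where Gclc had 0.28 (adjusted p = 0.14), and 4 with all probe sets. The block also ended the averaged call of Slc7a11 (adjusted p = 0.0539) and the call of Gclm on HSP990 (0.0616). The 3 called in the averaged response became 4 with the mean of the probe sets and with all probe sets, where Txnrd1 joined them. For R6/2 against WT the count became 1 on vehicle with all probe sets, and 5 on HSP990 after removal of dim probe sets. Removal of single arrays gave 0 to 2 members in R6/2 mice, 1 to 3 in WT mice, 3 averaged, 0 for genotype on vehicle, 2 to 4 on HSP990 and 0 for the interaction. Over all genes, 563 were called for HSP990 in R6/2 mice, 202 with only the groups compared, 368 with the covariate and 309 to 1043 with 1 array left out. In WT mice 1056 were called, and 655 with the replicate block. Testing all probe sets gave 880 calls for HSP990 in R6/2 mice, 1838 in WT mice, 2474 averaged against 1399 genes, 10428 for genotype on HSP990 against 6108, and 5968 on vehicle against 3906, among more features tested. The interaction count of 45 genes ran from 16 with the covariate to 80 with the mean of the probe sets, with 73 for all probe sets, 23 under the block, 25 without the 2 arrays, and 30 to 182 with 1 array left out. The cause of these shifts was not tested. Same-numbered arrays of different groups had a mean correlation of residuals of 0.0377 over 43 pairs, 19 of them over 0.1. For arrays of other numbers and different groups the mean was -0.0041 over 338 pairs, 95 of them over 0.1. Whether the replicate numbers mark a pairing was not tested. Dim probe sets, as for Hmox1 and Osgin1, limit what could be detected.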
